A study of Yarrowia lipolytica with 4 samples.

Results

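The GPR1/FUN34/yaaH family is a group of small membrane proteins that carry acetate and related small acids. Its members were taken here as every gene of Yarrowia lipolytica whose deposited description contains "GPR1/FUN34", which gave 5 genes of 6797: BKA90DRAFT_87520, BKA90DRAFT_132304, BKA90DRAFT_166656, BKA90DRAFT_141201 and BKA90DRAFT_158908. Their RNA was measured in strain F19 and in the control strain WLH, in a study that built a genome-wide CRISPR interference library, in which guide RNAs direct an inactive Cas protein to repress single genes, and searched it for tolerance of 2 growth inhibitors, furfural and acetic acid. Both derive from PO1f, and both were grown in SD-leu (synthetic medium without leucine) containing 2.4 mM furfural, a growth inhibitor formed from plant sugars, at 30 °C for 48 h. There were 2 libraries of poly(A) RNA per strain, 4 in all. No library without furfural and none with added acetic acid was analysed here. What was altered in F19 is not stated by the labels, and no repressed target could be checked. The labels do not state that the libraries of a strain come from separate cultures, and their spread, which is all that p-values measure, may be technical.

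The family takes its name from Gpr1 of Y. lipolytica, in which certain mutations make cells sensitive to acetic acid, from Fun34 of Saccharomyces cerevisiae and from YaaH of Escherichia coli. In S. cerevisiae, Ady2 of the same family takes up acetate, and family members have also been tied to the export of ammonia from ageing colonies. YaaH of E. coli is a permease for acetate and succinate. Acetate that enters a yeast cell is joined to coenzyme A, and growth on it draws on the glyoxylate cycle.

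All 5 members lie on different scaffolds of the deposited annotation, and each spans exactly its exonic length, which leaves no room for an intron in the gene model; the same holds for 78.7% of all genes. BKA90DRAFT_87520 lies at 103347 to 104147 of ML756034.1 on the minus strand and is the shortest, with 801 bases. BKA90DRAFT_132304 lies at 61938 to 63360 of ML755977.1 on the plus strand and is the longest, with 1423 bases. BKA90DRAFT_166656 (ML755983.1, 65191 to 66119, plus strand), BKA90DRAFT_141201 (ML756039.1, 73182 to 74252, plus strand) and BKA90DRAFT_158908 (ML756047.1, 2364 to 3185, minus strand) have 929, 1071 and 822 bases. None of the members carries a gene ontology term. BKA90DRAFT_132304 carries an ortholog number, K01981, that the same table assigns to ribosome pathways, which goes against its description. No genome build is named by the labels or file headers.

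A sixth gene, BKA90DRAFT_141171, is described as glyoxylate pathway regulator, the name behind Gpr1. It is annotated with acetate transport and has the ortholog number of the YaaH family, K07034, but its description lacks the family name. It is no member by the rule, and it was added after its values were seen. It lies at 23422 to 24403 of ML756039.1 on the minus strand, the scaffold of BKA90DRAFT_141201, with 48778 bases between them.

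The members were weakly expressed, with means over the 4 libraries between 0.08 and 9.41 FPKM. Levels are given as FPKM, the authors' counts divided by exonic length and library total, so that genes of different length can be compared. BKA90DRAFT_87520 was the highest, at 12.83 and 13.03 FPKM in the F19 libraries and 5.68 and 6.08 in the WLH libraries. BKA90DRAFT_132304 followed with 4.49 and 6.41 FPKM in F19 and 3.26 and 2.85 in WLH. Both genes were higher in each F19 library than in any WLH library, as were 50.5% of genes with at least 1 count, by FPKM. The F19 libraries lay closer together for BKA90DRAFT_87520 than for BKA90DRAFT_132304.

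The other members were near the limit of detection. BKA90DRAFT_166656 stood at 0 and 0.06 FPKM in F19 and at 1.07 and 1.65 in WLH. BKA90DRAFT_141201 had 0 and 0.05 FPKM in F19 and 0.54 and 0.51 in WLH. Both were lower in each F19 library than in any WLH library, and in F19 each rested on a single read in replicate 2. Of genes with at least 1 count, 27.5% were lower in F19 without overlap of the strains in FPKM. BKA90DRAFT_158908 had 0.12 and 0.13 FPKM in F19 and 0 and 0.07 in WLH, from 4 reads in F19 and 1 in WLH. In the library where it is 0, 3 counts would correspond to 0.136 CPM (counts scaled to a common library size), so that its absence cannot be read from these data.

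**Figure D1:**
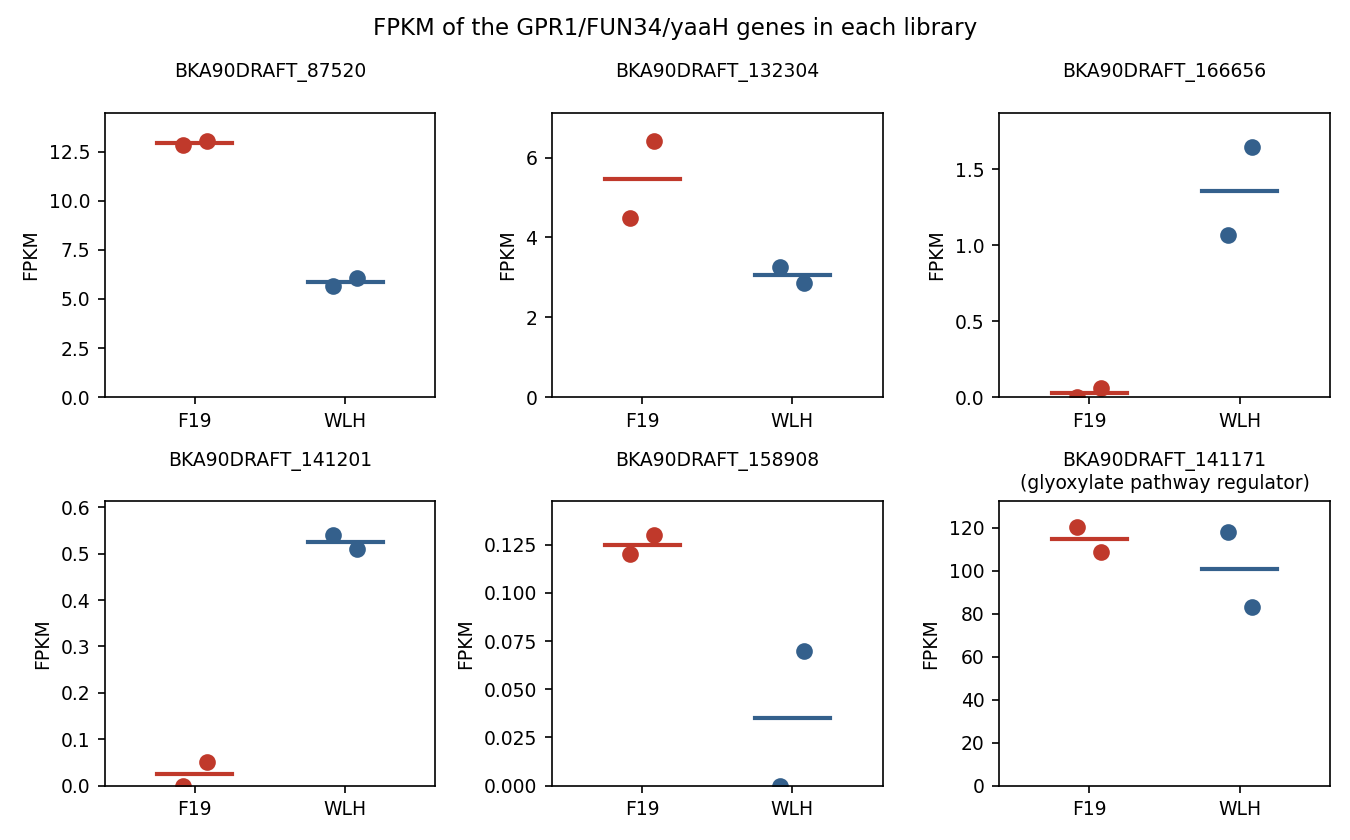
FPKM (vertical axis, from 0, a scale of its own in each panel) of the 5 family members and of BKA90DRAFT_141171 in F19 and WLH; each point is a library and each line the mean of 2 libraries. BKA90DRAFT_87520 is near 13 FPKM in F19 and near 6 in WLH, BKA90DRAFT_166656 and BKA90DRAFT_141201 are at or near 0 in F19, and the strains overlap for BKA90DRAFT_141171.

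Set against all genes, even the highest member was in the lower part of the range. BKA90DRAFT_87520 reached the 24.5 and 24.9 percentiles of FPKM in the F19 libraries and the 19.8 and 20.4 percentiles in the WLH libraries. BKA90DRAFT_132304 lay between the 14.5 and 16.8 percentiles in all 4 libraries. In WLH, BKA90DRAFT_166656 reached the 9.26 and 11.9 percentiles. BKA90DRAFT_141171 was far more abundant, at 120.47 and 108.74 FPKM in F19 and 118.16 and 82.94 in WLH, between the 75.2 and 82.1 percentiles. Its FPKM was 6.91 and 5.53 times the sum of all 5 members in the F19 libraries and 11.2 and 7.43 times that sum in the WLH libraries.

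The order of the members by mean FPKM differed in its lower part. In F19 it was BKA90DRAFT_87520 at 12.9 ± 0.141, BKA90DRAFT_132304 at 5.45 ± 1.36, BKA90DRAFT_158908 at 0.125 ± 0.00707, BKA90DRAFT_166656 at 0.03 ± 0.0424 and BKA90DRAFT_141201 at 0.025 ± 0.0354 (SD, n = 2 each). In WLH it was BKA90DRAFT_87520 at 5.88 ± 0.283, BKA90DRAFT_132304 at 3.06 ± 0.29, BKA90DRAFT_166656 at 1.36 ± 0.41, BKA90DRAFT_141201 at 0.525 ± 0.0212 and BKA90DRAFT_158908 at 0.035 ± 0.0495 (SD, n = 2 each). In WLH the libraries of each gene did not overlap those of the next. In F19 the last 3 genes had at most 2 reads per library, and their order cannot be told at this depth.

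The comparison of F19 with WLH asks which members differ between the strains under furfural. BKA90DRAFT_87520 rose 1.87-fold in F19, BKA90DRAFT_166656 and BKA90DRAFT_141201 fell to nearly nothing, and BKA90DRAFT_132304 and the related BKA90DRAFT_141171 did not pass the test. BKA90DRAFT_158908 had too few reads to be tested. Of the 4 members tested, 1 was therefore called higher and 2 lower in edgeR's quasi-likelihood test at a Benjamini-Hochberg adjusted p of 0.05 over 6414 genes. The 2 called lower passed the filter on low counts only through their WLH libraries, so only a fall could have been called for them. The strains differed widely, since 51.4% of all genes tested were called, 25.9% higher in F19 and 25.5% lower; with library totals in place of TMM factors the split was 2419 genes higher and 1066 lower, against 1659 and 1635. Among the 169 genes tested with a mean below 1 CPM, where both members that fell belong, 10.7% were called higher and 21.3% lower. With 4 members, no share that sets the family apart is read from these counts. In cultures, fewer expressing cells and less RNA per cell cannot be told apart.

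BKA90DRAFT_87520 had 201 and 197 counts in the F19 libraries and 110 and 89 in the WLH libraries. Scaled with TMM factors, which assume that most genes do not change, these were 9.58 ± 0.28 CPM in F19 and 5.12 ± 0.207 CPM in WLH (SD, n = 2 each). The log2 fold change was 0.90 ± 0.21 (SE; edgeR adjusted p = 0.0115). The size held when single libraries were left out, with log2 fold changes between 0.86 and 0.95, but the call was lost without WLH replicate 1 (edgeR adjusted p = 0.0735) and without WLH replicate 2 (0.0616).

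BKA90DRAFT_132304 had 125 and 172 counts in F19 and 112 and 74 in WLH, or 7.19 ± 1.91 CPM in F19 and 4.72 ± 0.485 CPM in WLH (SD, n = 2 each). Its log2 fold change was 0.60 ± 0.27 (SE; edgeR adjusted p = 0.104). The strains did not overlap, as was the case, higher in F19, for the FPKM of 50.5% of genes with at least 1 count, and lower in F19 for 27.5%. The result leaned on F19 replicate 2: without it the log2 fold change was 0.31 (edgeR adjusted p = 0.415), and without F19 replicate 1 it was 0.85 and passed (0.0433). It also passed with library totals in place of TMM factors (0.83, edgeR adjusted p = 0.0349), a scaling that moves the median of all genes to 0.24.

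BKA90DRAFT_166656 had 0 and 1 counts in F19 and 24 and 28 in WLH. It passed the filter on low counts only through its WLH libraries, so only a fall could have been called. Its pooled rate in F19 was 0.0181 times that in WLH, with an exact 95% interval of 0.000449 to 0.105 that covers counting error only. The fitted log2 fold change, -5.49 ± 0.84 (SE; edgeR adjusted p = 0.00229), depends on the small prior count that the fit adds where a library has 0. The call was kept without each of the 4 libraries in turn (edgeR adjusted p between 0.00632 and 0.031), but the fitted value was -7.77 without F19 replicate 2 and -4.60 without F19 replicate 1. In the authors' deposited table of significant genes the log2 fold change is -5.82 with a standard error of 1.59 (adjusted p = 0.000705). That table holds 2 members, BKA90DRAFT_166656 and BKA90DRAFT_141201. Its smallest absolute log2 fold change is 1.0, and BKA90DRAFT_87520, at 0.90 here, is not in it.

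BKA90DRAFT_141201 had 0 and 1 counts in F19 and 14 and 10 in WLH. Its pooled rate in F19 was 0.0391 times that in WLH, with an exact 95% interval of 0.000951 to 0.24. The fitted log2 fold change was -4.36 ± 0.92 (SE; edgeR adjusted p = 0.0077). Without WLH replicate 2 the call was lost (edgeR adjusted p = 0.0603), and without WLH replicate 1 the gene had too few counts to be tested. The authors' deposited table gives -4.66 with a standard error of 1.71 (adjusted p = 0.0133). Both of these low genes passed the filter on low counts only through their WLH libraries, so only a fall could have been called for them.

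BKA90DRAFT_158908 did not pass that filter. Its pooled rate in F19 was 3.75 times that in WLH, with an exact 95% interval of 0.372 to 185, which includes a ratio of 1.

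BKA90DRAFT_141171 had 104 ± 5.62 CPM in F19 and 107 ± 27.4 CPM in WLH (SD, n = 2 each). Its log2 fold change was -0.05 ± 0.18 (SE; edgeR adjusted p = 0.842). The WLH libraries lay further apart, at 126.8 and 88.06 CPM, than the means of the strains.

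**Figure D2:**
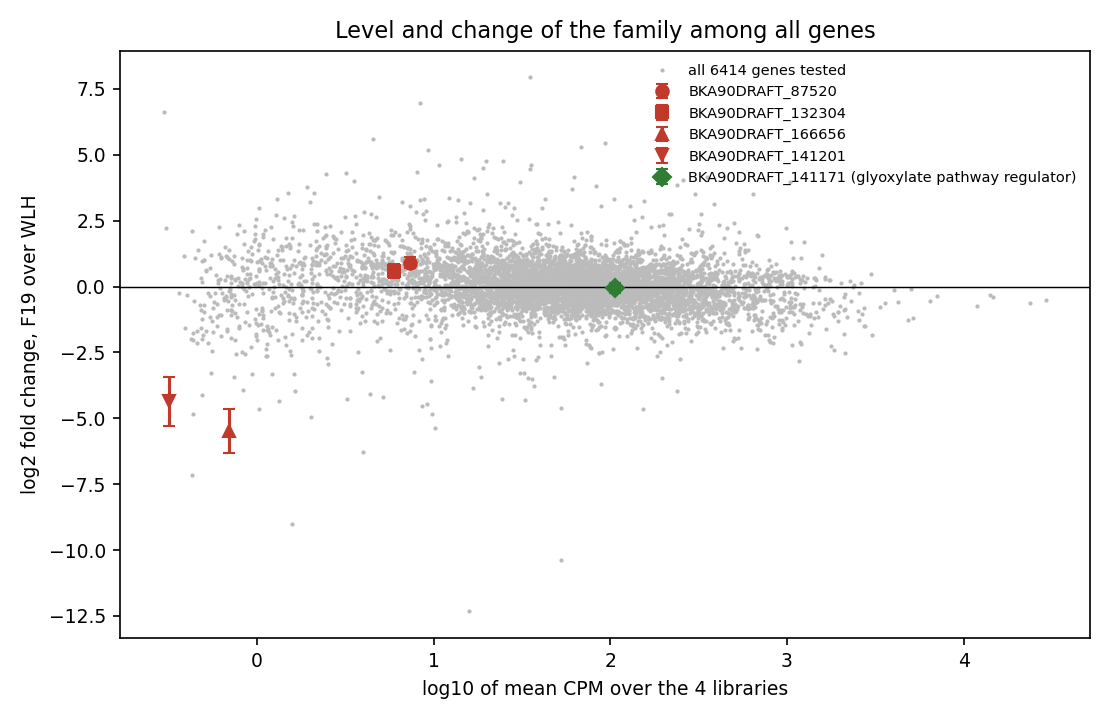
Log2 fold change of F19 over WLH (vertical axis) against the log10 of the mean CPM over 4 libraries (horizontal axis) for 6414 genes (grey points), with the 4 members tested in red and BKA90DRAFT_141171 in green; bars are standard errors. The members that fell, BKA90DRAFT_166656 at -5.49 and BKA90DRAFT_141201 at -4.36, are at the low end of the levels tested, and BKA90DRAFT_87520 at 0.90 is among genes of moderate change. Both members that fell passed the filter on low counts only through WLH, so only a fall could have been called.

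The make-up of the family within each library does not depend on how libraries are scaled to each other. BKA90DRAFT_87520 made up 73.6% and 66.2% of the family's summed FPKM in the F19 libraries and 53.8% and 54.5% in the WLH libraries. BKA90DRAFT_166656 made up 0% and 0.305% in F19 and 10.1% and 14.8% in WLH, and BKA90DRAFT_141201 made up 0% and 0.254% in F19 and 5.12% and 4.57% in WLH. BKA90DRAFT_132304 held a like share in both strains, 25.8% and 32.6% in F19 and 30.9% and 25.5% in WLH, with overlapping libraries. The summed FPKM was 17.4 and 19.7 in F19 and 10.6 and 11.2 in WLH.

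The share of BKA90DRAFT_87520 was 15.7 percentage points higher in F19 than in WLH, or 4.74 points when the members with a mean under 1 FPKM were left out of the sum. That of BKA90DRAFT_166656 dropped by 12.3 points and that of BKA90DRAFT_141201 dropped by 4.72 points. For each of these 3 genes the two-sided exact permutation test over libraries gave p = 0.333, the smallest that 2 libraries against 2 allow. For BKA90DRAFT_132304 the difference was 0.939 points (exact permutation p = 0.667), and its sign turned in several alternatives. Shares sum to 100% within a library, so they are not independent of each other. The ratio of the FPKM of BKA90DRAFT_87520 to that of BKA90DRAFT_132304 was 2.86 and 2.03 in the F19 libraries and 1.74 and 2.13 in the WLH libraries, which overlap.

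**Figure D3:**
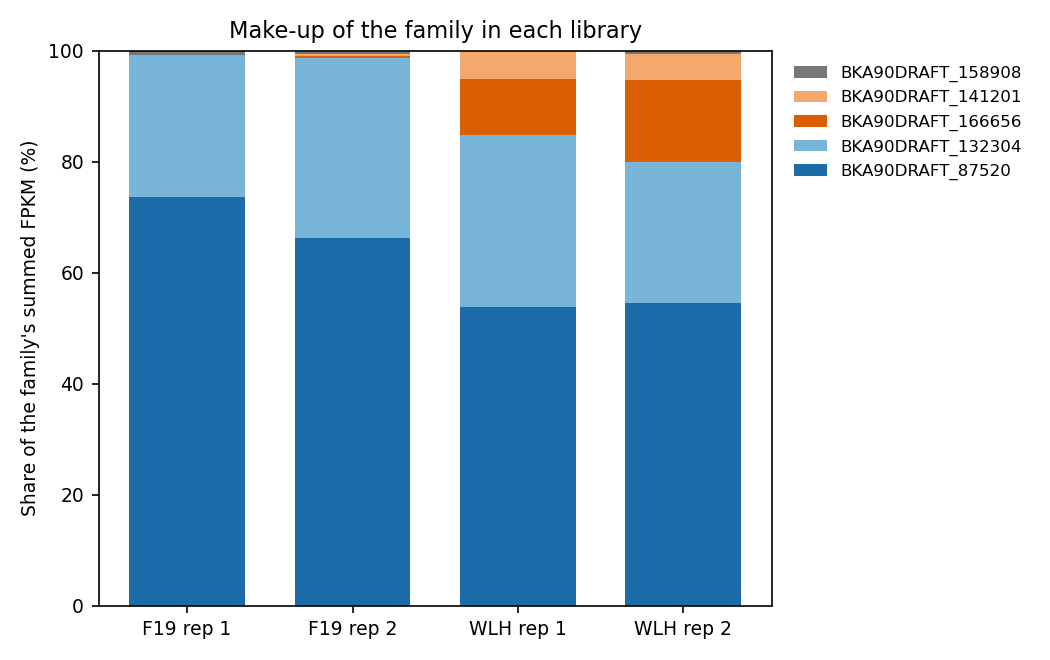
Share of each member in the summed FPKM of the 5 members (vertical axis, percent) in each of the 4 libraries (horizontal axis). BKA90DRAFT_87520 takes 66.2% or more in the F19 libraries and 54.5% or less in the WLH libraries, and BKA90DRAFT_166656 takes 10.1% or more in the WLH libraries only.

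The genes beside the members did not share their large falls. BKA90DRAFT_166656 lies between subunit 8 of the oligomeric Golgi complex, BKA90DRAFT_134151 (log2 fold change 0.24 ± 0.15, SE), and BKA90DRAFT_134155 (-0.23 ± 0.18, SE), and neither passed the test. BKA90DRAFT_134155 is described as hypothetical but carries the ortholog number K04567. BKA90DRAFT_141201 lies between a subunit of the Mediator complex, BKA90DRAFT_39390 (-0.39 ± 0.17, SE), and the undescribed BKA90DRAFT_141202 (-0.41 ± 0.16, SE), which did not pass either. BKA90DRAFT_87520 is flanked by BKA90DRAFT_154388 (-0.19 ± 0.12, SE) and by BKA90DRAFT_87565, a DNA damage checkpoint protein (0.21 ± 0.25, SE), and neither passed. BKA90DRAFT_154388 is described as hypothetical but carries the ortholog number K11675.

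BKA90DRAFT_132304 lies 666 bases before BKA90DRAFT_132305, which has the ortholog number of the vacuolar proton pump's subunit B and fell, with a log2 fold change of -0.79 ± 0.13 (SE; edgeR adjusted p = 0.00329). On its other side BKA90DRAFT_132302, described by its nucleotide-binding fold, did not pass (0.19 ± 0.17, SE). BKA90DRAFT_158908 ends 36 bases from BKA90DRAFT_141643, a nitrogen permease regulator gene on the opposite strand, which did not pass (0.07 ± 0.14, SE). Its other neighbour, BKA90DRAFT_141644, was at -0.00 ± 0.21 (SE). Beside BKA90DRAFT_141171 lie the helicase CHL1 gene BKA90DRAFT_141170, which did not pass (0.31 ± 0.21, SE), and the undescribed BKA90DRAFT_116673, which fell slightly (-0.35 ± 0.12, SE; edgeR adjusted p = 0.0427), a call lost with library totals (0.445), in DESeq2 (0.0551) and without any 1 of the libraries. Within 10 kb of the starts of the 5 members 36 other genes were tested, of which 7 were called higher and 4 lower, with log2 fold changes between -0.85 and 1.88. That is 19.4% called higher and 11.1% lower, against 25.9% and 25.5% of all genes; the difference was not tested.

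**Figure D4:**
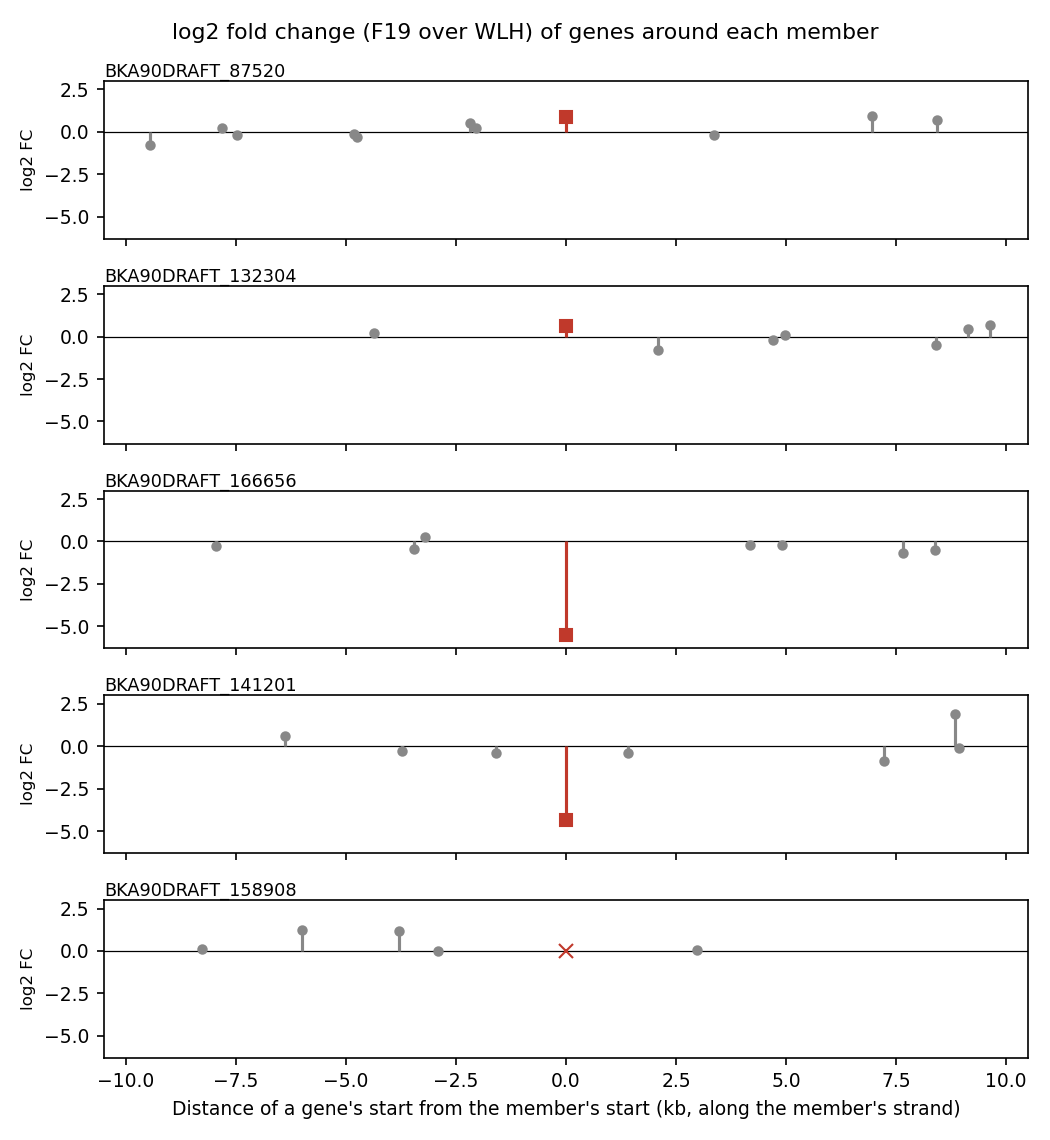
Log2 fold change of F19 over WLH (vertical axis) for genes whose start lies within 10 kb of the start of each member (horizontal axis, distance in kb along the member's strand); squares are the members, grey points the other genes, and the cross marks BKA90DRAFT_158908, which was not tested. Around BKA90DRAFT_166656, at -5.49, and BKA90DRAFT_141201, at -4.36, the lowest other gene is at -0.85.

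The genes most like 2 of the members in their pattern over the 4 libraries were sought among described genes with a mean of at least 10 CPM, by the Euclidean distance between log2(CPM + 0.1) values centred on each gene's mean. Nearest to BKA90DRAFT_87520, the member with the highest mean CPM, were the Mediator subunit BKA90DRAFT_142985 (distance 0.0715), the aspartic peptidase BKA90DRAFT_3140 (0.0716) and the ferric reductase-like BKA90DRAFT_136757 (0.0725). Their log2 fold changes were 0.83, 0.95 and 0.91. Nearest to BKA90DRAFT_166656, the member with the largest change, were the glutathione S-transferase BKA90DRAFT_136399 (0.15), the aspartic peptidase BKA90DRAFT_83157 (0.637) and homogentisate 1,2-dioxygenase, BKA90DRAFT_137911 (0.658), an enzyme of tyrosine breakdown. Their log2 fold changes were -3.71, -3.43 and -3.44. On this scale BKA90DRAFT_166656 itself differed by -3.56, a size set by the 0.1 added to its F19 values of 0 and 0.0497 CPM, and so which genes came nearest to it depends on that 0.1. Genes chosen by this distance differ between the strains much as the member does on this scale, so their fold changes are no further result. With 4 points per gene these distances are a description only.

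Genes of acetate use and of ammonium and proton handling were mostly lower in F19 or did not pass. Among them are 6 ammonium transporters with 2 rises and 3 falls, and 9 genes of the vacuolar proton pump with 6 falls. The 9 include no gene described as a proton pump of the plasma membrane. For scale, 25.9% of all genes tested rose and 25.5% fell. Of 35 genes in 8 lists drawn from descriptions, 34 were tested, of which 19 fell, 2 rose and 13 did not pass, with a median log2 fold change of -0.51 where all genes had 0.01. With library totals 12 fell and 3 rose, and 10 fell when either WLH library was left out. Of all 6414 genes tested, 1066 fell and 2419 rose with library totals. The lists for acetyl-CoA formation and for carboxylate transporters matched 0 descriptions. The 4 members tested ranged from -5.49 to 0.90 on the same scale.

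Formation of acetyl-CoA was therefore looked up by ortholog number, after values were seen. Of all genes tested, 25.5% fell and 25.9% rose. BKA90DRAFT_144461, with the number of acetyl-CoA synthetase, which joins acetate to coenzyme A, had 240 and 362 FPKM in F19 and 538 and 497 FPKM in WLH, or 551 ± 167 CPM in F19 and 1111 ± 70.0 CPM in WLH (SD, n = 2 each). It fell, with a log2 fold change of -1.01 ± 0.22 (SE; edgeR adjusted p = 0.00911), a call lost without WLH replicate 1 (0.0787) and without WLH replicate 2 (0.0601). Both genes with the number of ATP citrate lyase, which makes acetyl-CoA from citrate, fell: BKA90DRAFT_137930 by 1.03 ± 0.18 (SE; edgeR adjusted p = 0.00337) and BKA90DRAFT_142924 by 0.59 ± 0.17 (SE; 0.0265) on the log2 scale. The second call was lost with library totals (0.106) and without WLH replicate 1 (0.114) or 2 (0.174). BKA90DRAFT_132553, with the number of acetyl-CoA hydrolase, did not pass (-0.35 ± 0.14, SE; edgeR adjusted p = 0.0735).

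Acetate arises from pyruvate through pyruvate decarboxylase and aldehyde dehydrogenase. For scale, 25.5% of all genes tested fell and 25.9% rose. Of 4 aldehyde dehydrogenases tested, BKA90DRAFT_143368 fell, to 18.2 ± 0.841 CPM in F19, against 45.7 ± 1.42 CPM in WLH (SD, n = 2 each). Its log2 fold change was -1.33 ± 0.14 (SE; edgeR adjusted p = 0.000761). The other 3 did not pass, with log2 fold changes between -0.41 and 0.28. The highest of them, BKA90DRAFT_2704, was called higher in F19 with library totals (0.52, edgeR adjusted p = 0.0224) and in the 3 limma fits on FPKM (0.51, limma adjusted p between 0.0202 and 0.0313). BKA90DRAFT_141574, with the ortholog number of pyruvate decarboxylase and looked up after values were seen, did not pass either (0.14 ± 0.20, SE).

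The glyoxylate cycle turns acetyl-CoA into sugar precursors. Of 12 genes of that list, which includes citrate synthase, aconitase and malate dehydrogenase, 8 fell, 0 rose and 4 did not pass. Among all genes tested, 25.5% fell and 25.9% rose. The median log2 fold change of the list was -0.94. With library totals 7 of its genes fell, and in DESeq2 10 fell. The cycle's own enzymes are isocitrate lyase and malate synthase. Isocitrate lyase BKA90DRAFT_137722 had 386 and 538 FPKM in F19 and 1168 and 972 in WLH, a log2 fold change of -1.44 ± 0.22 (SE; edgeR adjusted p = 0.00231), and the isocitrate lyase BKA90DRAFT_140667 was at -0.67 ± 0.15 (SE; 0.0106), a call lost without WLH replicate 1 (0.0976). Neither malate synthase passed, BKA90DRAFT_104903 at -0.50 ± 0.23 and BKA90DRAFT_142423 at -0.85 ± 0.31 (SE), although the second passed in DESeq2 (adjusted p = 0.0119) and without F19 replicate 1 (edgeR adjusted p = 0.00615), and the first without F19 replicate 2 (0.0468). The largest fall was that of malate dehydrogenase BKA90DRAFT_139631 (-1.64 ± 0.19, SE; edgeR adjusted p = 0.000978), followed by isocitrate lyase BKA90DRAFT_137722 and by citrate synthase BKA90DRAFT_133609 (-1.23 ± 0.16, SE; 0.00124). One of the 8 falls, BKA90DRAFT_137930, is the gene with the ortholog number of ATP citrate lyase, and another, BKA90DRAFT_136544, has that of an enzyme of leucine synthesis and lost its call with library totals (edgeR adjusted p = 0.129). Without WLH replicate 1 only 5 of the 12 fell.

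Carnitine acyltransferase, which moves acetyl groups between compartments, was represented by BKA90DRAFT_135476. It fell to 43.9 ± 3.88 CPM in F19, against 128 ± 31.8 CPM in WLH (SD, n = 2 each), or -1.55 ± 0.19 on the log2 scale (SE; edgeR adjusted p = 0.00107). Neither gene of the first steps of gluconeogenesis passed: phosphoenolpyruvate carboxykinase BKA90DRAFT_137733 was at -0.31 ± 0.29 and fructose-1,6-bisphosphatase BKA90DRAFT_108684 at -0.24 ± 0.14 (SE).

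Of 6 ammonium transporters of the AmtB type, which take up ammonium, 2 rose, 3 fell and 1 did not pass, where 25.9% of all genes rose and 25.5% fell. BKA90DRAFT_132300 and BKA90DRAFT_160795 passed the filter on low counts only through their WLH libraries, so only a fall could have been called for these. BKA90DRAFT_166010 had 5.19 and 7.49 FPKM in F19 and 1.11 and 0.59 in WLH, a log2 fold change of 2.63 ± 0.38 (SE; edgeR adjusted p = 0.00185). BKA90DRAFT_132300 had 0.1 and 0.07 FPKM in F19 and 2 and 1.02 in WLH, a log2 fold change of -4.36 ± 0.61 (SE; 0.00167). It is on the scaffold of BKA90DRAFT_132304, with 11595 bases between them. BKA90DRAFT_160795 fell at a low level, to 0.166 ± 0.0949 CPM in F19, against 0.68 ± 0.125 CPM in WLH (SD, n = 2 each; edgeR adjusted p = 0.0315), a call lost in DESeq2 (0.124) and without any 1 of the 4 libraries (0.0542 to 0.195). The most abundant, BKA90DRAFT_134198, at 109 and 102 FPKM in F19 and 118 and 121 in WLH, fell by 0.42 ± 0.12 on the log2 scale (SE; edgeR adjusted p = 0.0269). That call was lost with library totals (edgeR adjusted p = 0.252), in the 3 limma fits on FPKM (0.164 to 0.228) and without F19 replicate 2 (0.056), WLH replicate 1 (0.115) or WLH replicate 2 (0.133). BKA90DRAFT_158509, on the scaffold of BKA90DRAFT_87520 with 21733 bases between them, rose by 1.07 ± 0.33 (SE; edgeR adjusted p = 0.03), a call lost without F19 replicate 2 (0.138), WLH replicate 1 (0.0809) or WLH replicate 2 (0.173). Without F19 replicate 2, WLH replicate 1 or WLH replicate 2, the list had 1 rise and 1 fall.

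The vacuolar proton pump acidifies the vacuole and helps cells cope with acid. Of 9 subunit genes found by description, 6 fell, 0 rose and 3 did not pass, where 25.5% of all genes fell and 25.9% rose. The median log2 fold change of the 9, which do not include BKA90DRAFT_132305, was -0.45. The largest falls were those of subunit E, BKA90DRAFT_119038 (-0.78 ± 0.14, SE; edgeR adjusted p = 0.00451), subunit G, BKA90DRAFT_136849 (-0.57 ± 0.13, SE; 0.0116), and the V0 subunit BKA90DRAFT_112149 (-0.55 ± 0.13, SE; 0.0107). These falls depended on the scaling: with library totals 1 of the 9 fell, as in the limma fits, and leaving out a library left 6 falls (F19 replicate 1), 2 falls (F19 replicate 2 or WLH replicate 1) or 1 fall (WLH replicate 2).

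**Figure D5:**
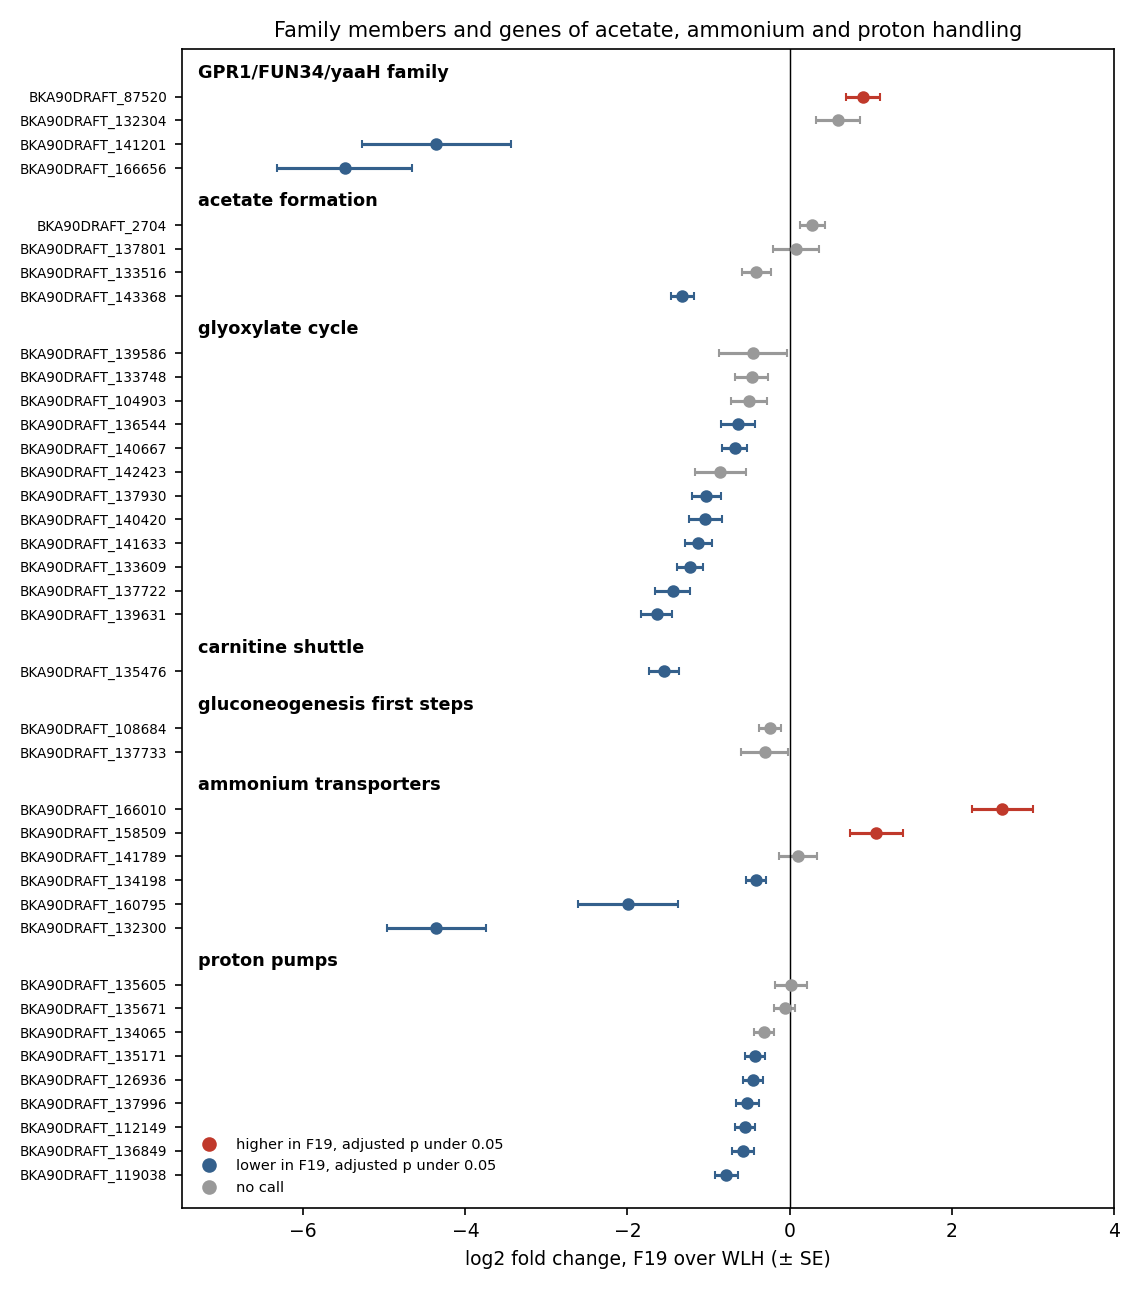
Log2 fold change of F19 over WLH (horizontal axis, bars are standard errors) for the 4 members tested and the 34 listed genes tested (rows), in red where called higher, in blue where called lower and in grey where not called. The family and the ammonium transporters have calls in both directions, and the first steps of gluconeogenesis have no calls. The other lists have calls below 0 only, with 1 call each for acetate formation and the carnitine shuttle. Of all genes tested, 25.9% were called higher and 25.5% lower. BKA90DRAFT_2704, not called here, is called higher with library totals and in limma. BKA90DRAFT_166656, BKA90DRAFT_141201, BKA90DRAFT_132300 and BKA90DRAFT_160795 passed the filter on low counts only through WLH, so only a fall could have been called for these.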

How the data were processed

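The deposited tables hold, per the file headers, exonic lengths, raw counts and FPKM of 6800 features. A further deposited table lists 1249 genes that the authors called significant, with the authors' mean normalised signal, fold (ratio), log2 fold change and its error, test score, p-value and adjusted p-value. The submitters' processing notes name HTSeq 0.6.1, HISAT2 2.2.1, cutadapt 1.9.1 and DESeq2. Neither their settings nor the strand setting of counting was given in the sources used here. The protocol names no step that marks strand, and reads shared by near-identical or overlapping genes cannot be told apart. FPKM equalled counts divided by length and library total within 0.005. A letter I stands for the digit in the column name of WLH replicate 1, and 0 sample columns had no match.

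Of the features, 3 construct rows that name no gene took 0.134% to 0.387% of counts and were left out. Totals were then 18244313 to 24129664 counts per library. Counts were tested with edgeR 4.0.16 (R 4.3.3): filterByExpr, TMM factors of 1.1 and 1.07 for F19 and 0.916 and 0.926 for WLH, glmQLFit and glmQLFTest, strain as the only term, Benjamini-Hochberg adjustment over 6414 genes. Standard errors were taken as the log2 fold change over the square root of F. The fold is F19 over WLH. The script was tested on simulated data in which few genes changed, equally in both directions. That test does not cover a difference between strains as wide as the one here. Exact intervals are Clopper-Pearson at 95%; intervals and floors (3 counts) cover counting error only. Permutation tests used SciPy 1.17.1. Alternatives were DESeq2 1.42.0, limma 3.58.1 on log2(FPKM + 1) and log2(FPKM + 0.1), other scalings and filters, a robust fit, the replicate block, and fits that left out 1 library at a time.

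The members and lists were chosen with earlier results of these data known. Named are all members, up to 3 called genes per list with the largest changes, the gene on either side of each member, and the 3 genes nearest in pattern to 2 members; any other gene was named after its values were seen. Lists follow descriptions, so genes described as hypothetical are missed. Of the identifiers, 0 matched the reference gene table, so no sequence is shown.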

Additional observations from a re-analysis of the deposited data

How the results depend on the processing

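Median-ratio factors, no count filter, DESeq2 and the robust fit (added after seeing the data) kept the calls of all 4 members tested. BKA90DRAFT_132304 also passed with library totals (log2 fold change 0.83), with limma on log2(FPKM + 1), filtered (0.66) or not (0.66), and with limma on log2(FPKM + 0.1) (0.80); each of these 4 settings gives 2 members called higher. Both filtered limma fits call 0 members lower because their minimum mean of 1 FPKM removes the low members, as it does the ammonium transporters BKA90DRAFT_132300 and BKA90DRAFT_160795. Listed genes called lower were 12 with library totals, 10 in both filtered limma fits and 12 in the unfiltered one, against 19. Of all 6414 genes tested, 1066 were called lower with library totals, against 1635. The limma fits called 47.6% to 54.9% of their genes in either direction, against 51.4%.

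Leaving out each library in turn gave 0 to 2 members called higher and 1 to 2 called lower, and 1 to 2 listed genes called higher and 10 to 18 lower. Log2 fold changes ran from 0.31 to 0.85 for BKA90DRAFT_132304, from -6.64 to -3.47 for BKA90DRAFT_141201, from -7.77 to -4.60 for BKA90DRAFT_166656 and from 0.86 to 0.95 for BKA90DRAFT_87520. Of all genes, 1919 passed without WLH replicate 1, 1670 without WLH replicate 2, 3121 without F19 replicate 1 and 2921 without F19 replicate 2, against 3294. Without WLH replicate 1, BKA90DRAFT_141201 gave no value because too few counts were left. The cause of the larger drop without a WLH library was not tested. A lone library is assumed to vary like the other strain's. The share difference of BKA90DRAFT_132304 turned to -4.74 points without the members under 1 FPKM, and ran from -2.47 (without F19 replicate 2) through -1.74 (without WLH replicate 2) to 4.35 when libraries were left out; with 2 members left, the difference for BKA90DRAFT_87520 is 4.74.

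No label states that same-numbered libraries of the strains share a batch. Pearson's r of their deviations across genes was -0.112, which cannot settle this with 2 libraries per strain. With the replicate block the log2 fold changes were 0.90 for BKA90DRAFT_87520, 0.58 for BKA90DRAFT_132304, -5.51 for BKA90DRAFT_166656 and -4.36 for BKA90DRAFT_141201, with the calls of the family kept, and 3369 genes passed. With crossed numbers 3547 passed. Of 668 values of 48 genes outside the family, 591 kept their call, 53 lost it, 24 gained one and 0 reversed. Depth limits BKA90DRAFT_166656, BKA90DRAFT_141201 and BKA90DRAFT_158908, whose F19 libraries hold 0 to 2 counts.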

Other observations

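Lactate transporters of the major facilitator superfamily also carry small acids across the plasma membrane of yeasts. They were looked up by ortholog number, K08178, after values were seen, since no description named such carriers. Of 5 genes, 4 were tested, of which 2 fell and 2 did not pass, where 25.5% of all genes fell and 25.9% rose. BKA90DRAFT_142531 had 0.07 and 0.38 FPKM in F19 and 3.92 and 3.5 in WLH (log2 fold change -4.27 ± 0.54, SE; edgeR adjusted p = 0.0012). BKA90DRAFT_140158 had 0.12 and 0.03 FPKM in F19 and 2.15 and 2.21 in WLH (-4.96 ± 0.50, SE; 0.000698). Both passed the filter on low counts only through their WLH libraries, so only a fall could have been called. The most abundant, BKA90DRAFT_132726, had 120 and 129 FPKM in F19 and 83.3 and 46.4 in WLH. Its log2 fold change of 0.71 ± 0.26 (SE) did not pass (edgeR adjusted p = 0.0558), but passed with library totals (0.0211), in DESeq2 (0.0177), with the replicate block (0.000446) and without WLH replicate 1 (0.0166). It did not pass in the robust fit (0.0692), without F19 replicate 1 (0.0754) or 2 (0.129), or without WLH replicate 2, where the log2 fold change was 0.34 (0.204). BKA90DRAFT_12529 did not pass (-0.54 ± 0.29, SE), and BKA90DRAFT_138311 was not tested.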
